A study of Mus musculus with 6 samples.

Results

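The nuclear-encoded subunits of oxidative phosphorylation were examined in cultured mouse heart cells that were or were not induced to express RIT1 M90I, a variant form of a GTPase of the RAS family. Members were taken by name from the protein-coding rows of the deposited table, as the Ndufa, Ndufb, Ndufc, Ndufs, Ndufv, Uqcr, Cox4i, Cox5, Cox6, Cox7, Cox8 and Atp5 genes together with Sdha, Sdhb, Sdhc, Sdhd and Cyc1, leaving out the Ndufaf assembly factors. This gave 87 of the 54532 rows. Of these, 36 belong to complex I, 4 to complex II, 9 to complex III, 20 to complex IV and 17 to complex V, and 1, Atp5s, encodes a coupling factor that was placed in no complex. Ndufa4 and its paralog Ndufa4l2 were counted with complex IV, where the NDUFA4 protein sits, and not with complex I as their names would have it.

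Primary cardiomyocytes were prepared from the digested hearts of neonatal mice that carry an engineered Rit1 locus, which Cre recombinase switches to the M90I variant. On day 3 after isolation, cultures were infected with an adenovirus encoding GFP (AdGFP, genotype Rit1 +/+ in the labels) or GFP-Cre (AdCre, genotype Rit1 M90I/+). Both groups therefore share the engineered locus, the viral vector and GFP, and each had 3 samples, labelled as biological replicates 1 to 3. No Cre-treated culture without the variant is among these samples, so an effect of Cre and an effect of M90I cannot be told apart. The cells seeded were those that stayed unattached during a first incubation on plastic, a step that depletes adherent non-myocytes, and no sort is described. In bulk RNA of such cultures fewer cells of a type and less RNA per cell cannot be told apart. A value per gene does not distinguish the M90I allele from the wild-type one, and Rit1 itself had a level of 8.55 ± 0.774 FPKM under AdGFP and of 9.19 ± 0.351 FPKM under AdCre (SD, n = 3 each).

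Values are FPKM (read fragments per kilobase of exon, relative to the depth of the library), which are per length. The length is that of all annotated exons of a gene, so comparisons of level between genes depend on that annotation. Reads recovered from them came to between 25.3 and 26.5 M (megareads) per AdGFP library and between 26.0 and 32.4 M per AdCre library. At this depth the tested members had between 95 and 43701 reads in their lowest library, with a median of 2179. All 15 cardiomyocyte markers, among them Tnnt2, Myh6 and Ryr2, were above 0 in every library. So were all listed fibroblast, endothelial, macrophage, epicardial and mesothelial, and smooth muscle and pericyte markers. Presence therefore does not tell these cell types apart. Red blood cell markers were at or near 0, with a summed level of at most 2.27 FPKM, and Hba-a2 and Hbb-bt were at 0 in every library.

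Oxidative phosphorylation is the process by which mitochondria make most of the ATP of a beating heart cell. Complex I takes electrons from NADH and complex II from succinate, complex III passes them to cytochrome c, and complex IV gives them to oxygen. Complexes I, III and IV pump protons across the inner membrane, and complex V, the ATP synthase, uses their return to make ATP. A few subunits come from the mitochondrial genome and all others from nuclear genes, which must be expressed in step with each other. Complex IV in addition has tissue isoforms, which replace ubiquitous subunits in heart and skeletal muscle as these tissues mature.

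The subunit genes were slightly lower in AdCre than in AdGFP across all complexes with all libraries in the comparison, and none passed the test when the libraries of a group were treated as independent replicates. The log2 fold change (AdCre minus AdGFP, on log2(FPKM + 0.1)) was below 0 for 81 of the 84 members tested, against 50.4% of the 13794 genes tested. This count was 52 of 84 without AdGFP replicate 1, 60 without AdCre replicate 3 and 67 after rescaling to TPM. Its median over members was -0.19, a level at 87.9% of AdGFP, against -0.00 over all genes. Leaving out AdGFP replicate 1 moved the members' median to -0.04, leaving out AdCre replicate 3 moved it to -0.06, and after TPM it was -0.10 against 0.09 for all genes. The AdCre value was below that of the same-numbered AdGFP library in all 3 pairs for 62 of 84 members (73.8%, against 24.5% of all genes), and above it in all 3 pairs for 0 (23.9% of all genes). By limma with Benjamini-Hochberg adjustment over all genes, 0 members were called lower and 0 higher at an adjusted p under 0.05 (background 0% lower and 0.00725% higher), and 5 members had an unadjusted p under 0.05, all of them lower (5.45% of all genes, with 0 higher against 4.71%). The smallest adjusted p of a member was 0.344. A fit with limma voom on the recovered reads also called 0 members, and 0 of all 13788 genes in that fit. In it 3 members had an unadjusted p under 0.05, and the share over all genes was not counted.

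The members varied with the replicate number more than with the group. Among the AdGFP libraries, replicate 1 was above replicate 3 for 81 of 84 members, and among the AdCre libraries for 82 of 84. The median difference between these libraries was 0.61 on the log2 scale in AdGFP and 0.52 in AdCre, with 0.52 to 0.73 for the single complexes in AdGFP. It was larger than the difference between the groups, whereas over all genes it was 0.01 and 0.03. Other lists of nuclear mitochondrial genes differed in the same direction. The median was 0.59 in AdGFP and 0.43 in AdCre for import, carriers and chaperones, and 0.56 and 0.39 for mitochondrial ribosomal proteins. For assembly factors it was 0.40 and 0.29, for tricarboxylic acid cycle enzymes 0.36 and 0.38, and for biogenesis regulators 0.24 and 0.24. Summed over all tested members, the level was 9985, 8484 and 6482 FPKM in AdGFP 1 to 3 and 8442, 7204 and 5896 FPKM in AdCre 1 to 3. The group ranges overlap, but each AdCre sum lay below the AdGFP sum of its own number, at 84.5, 84.9 and 91.0% of it. The labels do not say what a number marks, and the pairing was taken from the values, since same-numbered libraries deviated from their group means together over all genes.

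**Figure D1:**
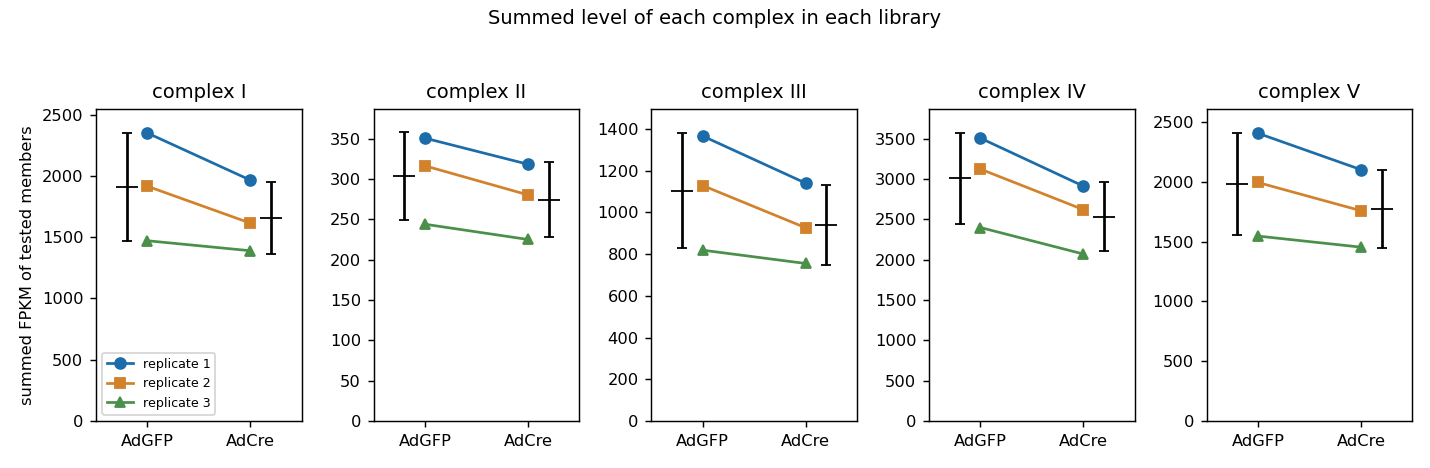
Summed FPKM of the tested members of each complex (y axis, linear from 0) in the AdGFP and AdCre libraries, with lines joining libraries of the same replicate number and black bars giving the group mean ± SD (n = 3). Every line falls from AdGFP to AdCre, while the distance between replicates 1 and 3 exceeds the distance between the groups.

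With the replicate number as a block in the same limma fit, 8 of 84 members fell in AdCre (9.52%, against 3.51% of all genes called lower) and 0 rose (2.64% of all genes). These were the complex IV genes Cox7a1, Cox6a2, Cox8b and Cox7c, the complex I genes Ndufb3, Ndufv3 and Ndufa6, and the complex III gene Uqcrb. At an unadjusted p under 0.05 the block gave 32 members, all lower (13.3% of all genes). Without pair 1 it called 6 members lower (7.14%, against 3.25% of all genes) and without pair 2 it called 0 (0.718% of all genes). It also called 0 without pair 3 or without the intensity trend of limma, where 0 of all 13794 genes were called lower, and 0 without the filter on low values, where 0.0211% of 28445 genes were. The groups did not overlap for 2 members, Ndufb3 and Cox7a2l, both lower (8.02% of all genes), and for 0 that were higher (7.36%).

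**Figure D2:**
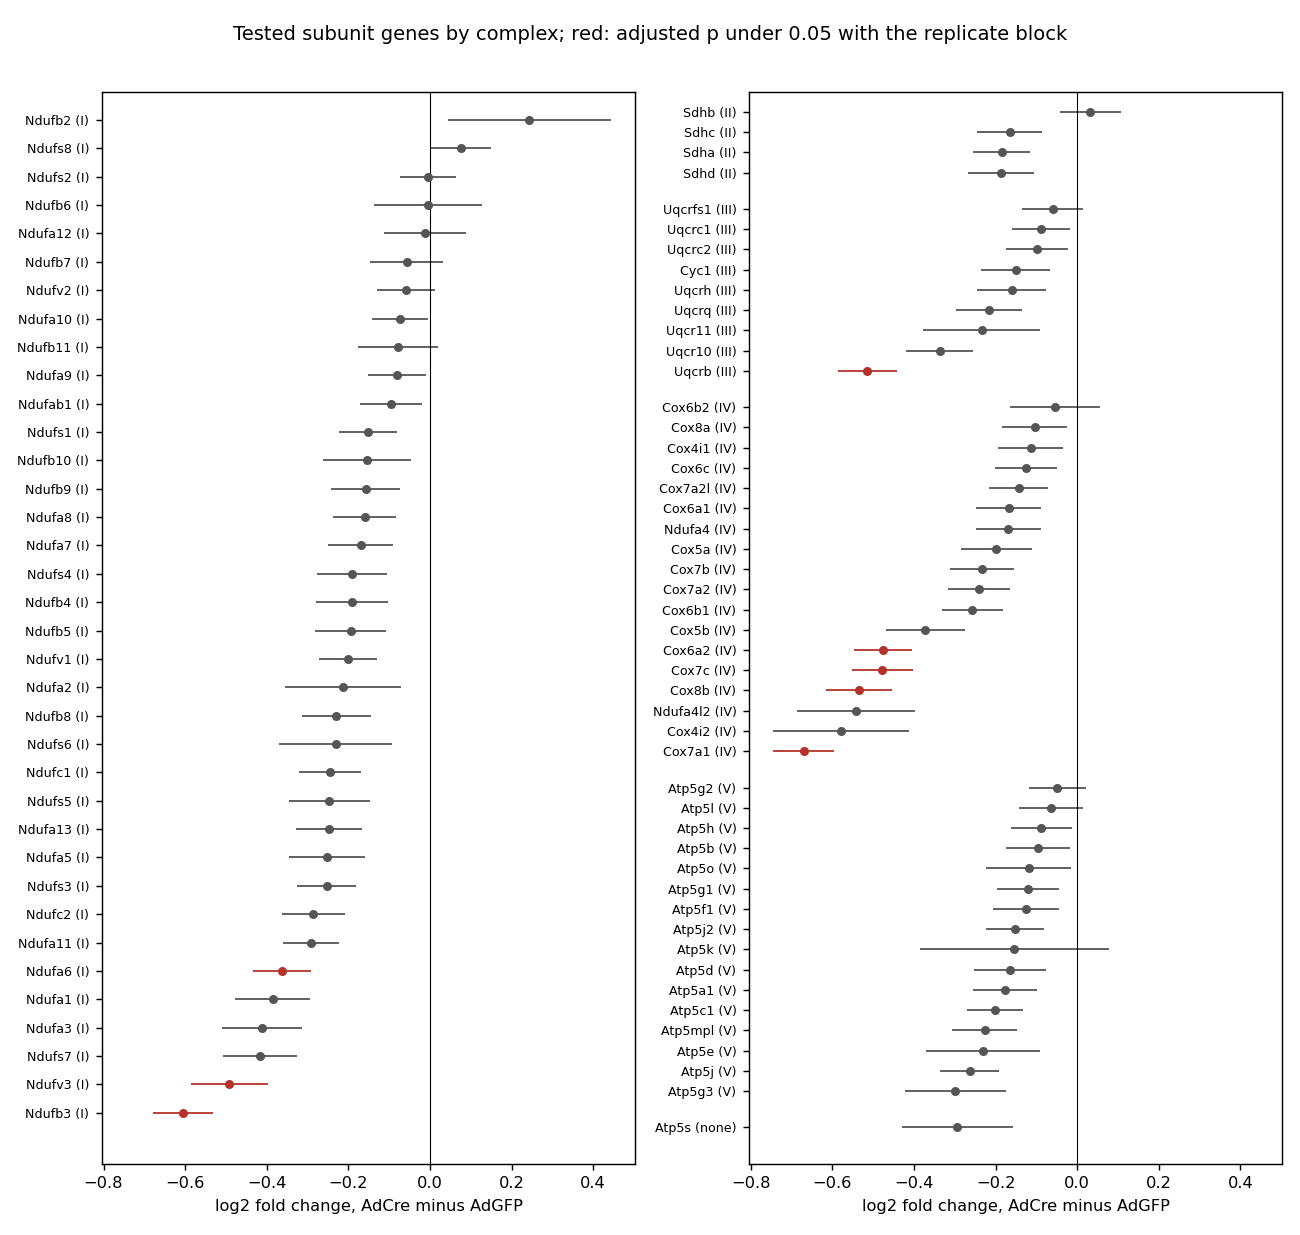
Log2 fold change (x axis, AdCre minus AdGFP) of the 84 tested members, with the complex in parentheses and bars of ± 1 SE from the fit with the replicate block. Red marks the 8 members with an adjusted p under 0.05 in that fit, 4 of them in complex IV, and all but 3 of the points lie left of 0.

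Complex IV, cytochrome c oxidase, had a median of -0.24 over 18 tested members, the lowest of the complexes except after quantile normalization (-0.14, against -0.16 for complex I), and all 18 had a log2 fold change below 0. Its summed level was 3508, 3124 and 2399 FPKM in AdGFP and 2913, 2621 and 2070 FPKM in AdCre. Of its tested members, 17 were lower in all 3 pairs. Leaving out AdGFP replicate 1 or AdCre replicate 3 moved the median to -0.10, and leaving out AdGFP replicate 3 or AdCre replicate 1 moved it to -0.45 or -0.39. After TPM the medians were -0.15 for complex IV, -0.10 for complex I, -0.09 for complex II, -0.07 for complex III and -0.06 for complex V, against 0.09 for all genes. With voom those of complexes II and III were -0.11 and -0.10. Differences between complexes were not tested, and in the fit with all libraries the medians of the others lay between -0.15 and -0.19.

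Cox7a1 encodes the heart and skeletal muscle isoform of subunit VIIa and lies at chr7:30184144-30186078 (GRCm38). It was at 104.6, 108.8 and 70.7 FPKM in AdGFP and at 67.2, 71.5 and 41.4 FPKM in AdCre. The highest AdCre library lay just above the lowest AdGFP library, and each AdCre library lay well below the AdGFP library of its number. The log2 fold change was -0.67, with an adjusted p of 0.455 without the block and of 0.0158 with it (limma).

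Cox8b, the muscle isoform of subunit VIII at chr7:140898945-140900446, was at 87.2, 98.7 and 45.6 FPKM in AdGFP and at 60.8, 61.7 and 34.4 FPKM in AdCre. Its AdGFP replicate 3 was below AdCre replicates 1 and 2, so the groups overlapped. Cox8b had a log2 fold change of -0.53, with an adjusted p of 0.682 without the block and of 0.0286 with it (limma).

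Cox6a2, the muscle isoform of subunit VIa at chr7:128205435-128206387, was at 138.0, 88.5 and 60.0 FPKM in AdGFP and at 104.6, 62.7 and 41.5 FPKM in AdCre. AdCre replicate 1 was higher than AdGFP replicates 2 and 3, while each pair fell. Cox6a2 had a log2 fold change of -0.48, with an adjusted p of 0.779 without the block and of 0.0284 with it (limma). Of its exon bases, 10.3% overlap the exons of Itgad on the other strand, and the use of strand in counting is not given in the sources used here.

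Cox7c, a small subunit with no tissue isoform at chr13:86044816-86046904, was at 196.2, 179.3 and 131.1 FPKM in AdGFP and at 146.0, 120.7 and 96.8 FPKM in AdCre. AdCre replicate 1 lay above AdGFP replicate 3 and the other AdCre libraries lay below all AdGFP libraries. Cox7c had a log2 fold change of -0.48, with an adjusted p of 0.519 without the block and of 0.0293 with it (limma). Of the 50-base words of its transcripts, 22.1% also occur in transcripts of other genes, so its reads may be split with near-identical copies.

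The ubiquitous partners of the muscle isoforms had fold changes nearer to 0. Cox7a2 was at 160 ± 41.0 (AdGFP) and 134 ± 27.3 FPKM (AdCre) (SD, n = 3 each), Cox8a at 495 ± 62.4 and 460 ± 54.5 FPKM, and Cox6a1 at 506 ± 81.8 and 449 ± 57.1 FPKM. Their log2 fold changes were -0.24, -0.10 and -0.17, and none passed with or without the block. For Cox8a the direction depended on the scaling, since after quantile normalization it was 0.03. In AdGFP the ubiquitous member of each pair was the more abundant on the FPKM scale.

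The ratio of each muscle isoform to its ubiquitous partner was formed within each library, which takes out what the library does to both genes alike. The ratio Cox7a1 to Cox7a2 was 0.525, 0.671 and 0.602 in AdGFP and 0.427, 0.510 and 0.398 in AdCre. The ranges did not overlap, with a mean log2 difference of -0.43 and a two-sided exact permutation p of 0.1, the smallest that 3 against 3 allows. The ratio Cox8b to Cox8a was 0.159, 0.194 and 0.107 in AdGFP and 0.118, 0.136 and 0.0842 in AdCre, a mean log2 difference of -0.43 (exact permutation p = 0.3). The ratio Cox6a2 to Cox6a1 was 0.242, 0.166 and 0.145 in AdGFP and 0.212, 0.133 and 0.108 in AdCre, a mean log2 difference of -0.31 (exact permutation p = 0.4). All 3 ratios were lower in each of the 3 pairs, for which the exact paired permutation test gives its smallest p, 0.25. Neither design can reach 0.05. For Cox6a2 to Cox6a1 the log2 differences within pairs 1 to 3 were -0.19, -0.31 and -0.42. Dropping a whole pair gave a mean of -0.37 (pair 1), -0.31 (pair 2) or -0.25 (pair 3). Dropping 1 library leaves the replicate numbers unbalanced, and this ratio fell from replicate 1 to 3 in both groups. The mean log2 difference then moved to -0.094 (AdGFP replicate 1 dropped), -0.095 (AdCre replicate 3), -0.46 (AdGFP replicate 3) or -0.58 (AdCre replicate 1). That of Cox8b to Cox8a was -0.24 without AdGFP replicate 2 or without AdCre replicate 3 and -0.67 without AdGFP replicate 3, and that of Cox7a1 to Cox7a2 stayed between -0.53 and -0.34. Over the 4 ratios tested, all Benjamini-Hochberg adjusted values of the exact permutation p were 0.4.

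**Figure D3:**
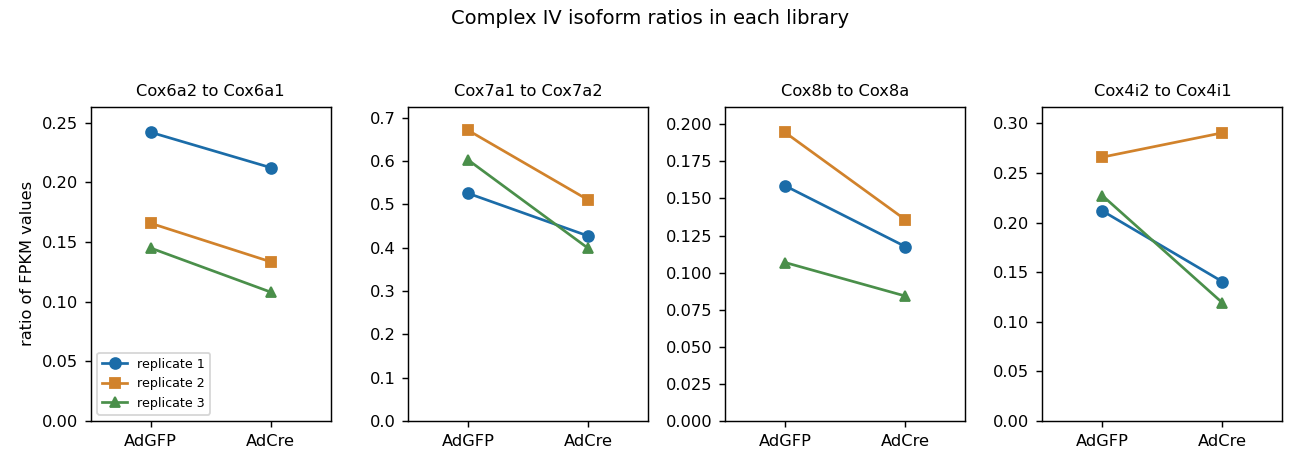
Ratio of FPKM values of a tissue isoform to its ubiquitous partner (y axis, linear from 0) in the AdGFP and AdCre libraries, with lines joining libraries of the same replicate number. The ratios Cox6a2 to Cox6a1, Cox7a1 to Cox7a2 and Cox8b to Cox8a fall along all 3 lines, and Cox4i2 to Cox4i1 falls along 2 lines and rises along that of replicate 2.

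Cox4i2, the isoform of subunit IV known from lung and from hypoxic cells, behaved less evenly. It was at 70.5, 72.6 and 49.4 FPKM in AdGFP and at 43.1, 68.7 and 25.6 FPKM in AdCre. AdCre replicate 2 stood at the level of the controls and the other AdCre libraries were below all of them. The log2 fold change was -0.58, with an adjusted p of 0.658 without and of 0.104 with the block (limma). The ratio to Cox4i1, at 274 ± 57.7 (AdGFP) and 253 ± 48.1 FPKM (AdCre) (SD, n = 3 each), had a mean log2 difference of -0.46 (exact permutation p = 0.4, paired p = 0.5), which was -0.85 without AdCre replicate 2 and -0.21 without AdCre replicate 3. Ndufa4l2, a hypoxia-induced paralog of Ndufa4, had the same shape, with 171.6, 186.5 and 157.9 FPKM in AdGFP and 102.7, 173.0 and 92.1 FPKM in AdCre. Its log2 fold change was -0.54, with an adjusted p of 0.519 without and of 0.0885 with the block (limma). Ndufa4 itself was at 106 ± 25.8 and 93.3 ± 16.8 FPKM (log2 fold change -0.17).

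Cox7a2l, which takes part in joining complexes III and IV into supercomplexes, had the smallest spread between AdGFP replicates of any tested member, a coefficient of variation of 2.34%. Its level was 112.4, 117.7 and 114.6 FPKM in AdGFP and 107.1, 106.1 and 99.0 FPKM in AdCre, so the groups did not overlap (log2 fold change -0.14, limma adjusted p 0.752 without and 0.291 with the block). It was named after its values were seen. Of the 2 untested complex IV members, Cox7b2 was at 0.0243 ± 0.042 (AdGFP) and 0.178 ± 0.0937 FPKM (AdCre) (SD, n = 3 each), and Cox8c was at 0 in every library.

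The promoters of Cox7a1 and Cox8b and of their ubiquitous partners are printed because their fold changes differed within the pair. Cox6a2 and Cox4i2 matched no window. Sequences are RefSeq promoter windows (GRCm38.p6), each from 250 bases before the annotated start to 30 after it, 5′ to 3′ on the strand of the gene. Capitals mark matches to the motifs listed after them.
Cox7a1: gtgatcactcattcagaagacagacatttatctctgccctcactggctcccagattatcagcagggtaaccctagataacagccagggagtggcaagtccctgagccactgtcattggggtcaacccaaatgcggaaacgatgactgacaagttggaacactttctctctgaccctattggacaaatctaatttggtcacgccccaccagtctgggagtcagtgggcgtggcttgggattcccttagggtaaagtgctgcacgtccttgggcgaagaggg
Cox7a2: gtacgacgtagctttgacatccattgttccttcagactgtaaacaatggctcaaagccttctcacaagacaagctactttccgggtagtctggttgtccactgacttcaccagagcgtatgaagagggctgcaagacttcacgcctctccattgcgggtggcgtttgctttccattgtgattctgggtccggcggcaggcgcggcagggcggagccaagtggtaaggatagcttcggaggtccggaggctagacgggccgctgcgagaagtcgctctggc
Cox8b: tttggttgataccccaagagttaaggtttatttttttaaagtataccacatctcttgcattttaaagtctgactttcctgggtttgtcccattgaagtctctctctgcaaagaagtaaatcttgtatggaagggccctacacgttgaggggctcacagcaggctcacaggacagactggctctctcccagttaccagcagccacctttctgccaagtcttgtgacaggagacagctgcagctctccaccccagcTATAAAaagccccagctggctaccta
Cox8a: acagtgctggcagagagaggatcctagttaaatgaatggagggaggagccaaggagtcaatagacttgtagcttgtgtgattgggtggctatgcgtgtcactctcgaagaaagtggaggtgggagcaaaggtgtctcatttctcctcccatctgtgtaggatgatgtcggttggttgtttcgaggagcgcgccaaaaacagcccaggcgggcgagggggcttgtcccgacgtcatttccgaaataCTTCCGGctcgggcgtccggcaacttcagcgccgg
These lie at chr7:30183921-30184200 (plus strand), chr9:79759824-79760103 (minus), chr7:140900417-140900696 (minus) and chr19:7217587-7217866 (minus). In the whole 300-base windows, which run 50 bases past the start, Cox7a1 held 7 CpG pairs, the median of all windows, and Cox8b held 2, against 20 in Cox7a2 and 19 in Cox8a. Cox8b held a TATAAA word, from position 255 of the printed sequence, and Cox8a held CCGGAAG (an ETS core) on the other strand, from position 246, with a second match from position 283 of the longer window.

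Of the 86 member symbols, 69 matched a RefSeq window, with 74 windows in all. The following words were searched on both strands, with N for any base. CCGGAAG (ETS core) was found in 21.6% of member windows and in 8.86% of all 32851 windows, and GCGCANGCG (NRF1 core) in 28.4% and 6.25%. AANATGGC (YY1 core) was found in 23.0% and 6.05%, CAAGGTCA (ERR half-site) in 5.41% and 1.56%, and TATAAA in 10.8% and 13.6%. Member windows were also richer in CpG pairs, with a median of 19 against 7, and in GC, with a median of 57.5% against 52.7%. A match is a description of letters in a window and not of a bound site.

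In complex I, NADH dehydrogenase, the median log2 fold change was -0.19 over 36 members, 34 of which had a value below 0. The 7 catalytic core subunits encoded in the nucleus had a median of -0.15 and the 29 accessory subunits of -0.19. The median of the complex moved to -0.05 when AdGFP replicate 1 was left out, to -0.08 without AdCre replicate 3, and to -0.33 or -0.32 when AdGFP replicate 3 or AdCre replicate 1 was left out. All 3 members that fell with the block were accessory subunits, while with voom and the block the core subunit Ndufs7 was called and Ndufa6 was not. Summed over the complex, the level was 2350, 1915 and 1471 FPKM in AdGFP and 1965, 1614 and 1389 FPKM in AdCre.

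Ndufb3, an accessory subunit of the membrane arm at chr1:58586384-58595964, had the smallest p of any member without the block, and Cox7a1 with it. Ndufb3 was at 61.7, 50.3 and 41.2 FPKM in AdGFP and at 37.8, 33.8 and 28.3 FPKM in AdCre, and every AdCre library was below every AdGFP library. The log2 fold change was -0.61, with an adjusted p of 0.344 without and of 0.0194 with the block (limma). Ndufv3, an accessory subunit of the NADH-binding module at chr17:31520115-31531331, was at 55.0, 39.9 and 27.7 FPKM in AdGFP and at 34.0, 28.7 and 22.3 FPKM in AdCre. The groups overlapped through AdGFP replicate 3, and the log2 fold change was -0.49, with an adjusted p of 0.621 without and of 0.0443 with the block (limma). Ndufa6, an accessory subunit of the matrix arm at chr15:82350140-82354322, was at 53.4, 51.5 and 42.9 FPKM in AdGFP and at 43.1, 38.0 and 33.8 FPKM in AdCre. Here the groups touched, with AdCre replicate 1 just above AdGFP replicate 3, and the log2 fold change was -0.36, with an adjusted p of 0.470 without and of 0.0474 with the block (limma). With the block, Ndufa6 was not called after TPM, median centring or quantile normalization, with voom or without pair 1.

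Ndufs7, a core iron-sulfur subunit, was at 65.5, 59.8 and 51.7 FPKM in AdGFP and at 45.8, 51.7 and 35.9 FPKM in AdCre. AdCre replicate 2 was level with AdGFP replicate 3, and the log2 fold change of -0.42 did not pass with the block (limma adjusted p 0.0571). It did pass with voom and the block. Only 2 complex I members had a positive log2 fold change, and neither passed. Ndufs8, another iron-sulfur core subunit, was at 75.7, 64.7 and 54.0 FPKM in AdGFP and at 82.5, 64.1 and 58.6 FPKM in AdCre (0.08). Ndufb2, an accessory subunit with the lowest mean FPKM of the tested members, was at 1.65, 1.00 and 0.973 FPKM in AdGFP and at 1.56, 1.58 and 1.13 FPKM in AdCre (0.24). Its FPKM was taken over 5628 exon bases. Ndufs8 and Ndufb2 were named after their values were seen.

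Complex II, succinate dehydrogenase, is the one complex made of nuclear subunits alone and also an enzyme of the tricarboxylic acid cycle. None of its 4 genes passed, with or without the block. The flavoprotein Sdha was at 100.4, 94.4 and 72.4 FPKM in AdGFP and at 89.5, 80.4 and 64.9 FPKM in AdCre (log2 fold change -0.19). The membrane anchors Sdhc and Sdhd had log2 fold changes of -0.17 and -0.19. The iron-sulfur subunit Sdhb was at 67.7, 51.8 and 45.9 FPKM in AdGFP and at 65.8, 56.9 and 45.9 FPKM in AdCre, so replicate 3 was level in the 2 groups. Its log2 fold change was 0.03 and turned negative in 4 of the fits with a library or pair left out, down to -0.09.

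In complex III, cytochrome bc1, all 9 members had a log2 fold change below 0, with a median of -0.16. This median was -0.0070 without AdGFP replicate 1 and 0.0027 without AdCre replicate 3, and -0.40 and -0.35 without AdGFP replicate 3 and without AdCre replicate 1. Uqcrb, a small subunit near the ubiquinone site at chr13:66900617-66905378, fell with the block. It was at 140.2, 121.3 and 96.9 FPKM in AdGFP and at 97.9, 80.8 and 71.4 FPKM in AdCre. AdCre replicate 1 was just above AdGFP replicate 3, and the log2 fold change was -0.51, with an adjusted p of 0.424 without and of 0.0268 with the block (limma). Of its 50-base words, 25.4% occur in transcripts of other genes. The small subunits Uqcr10, Uqcr11 and Uqcrq had log2 fold changes of -0.34, -0.23 and -0.22, with adjusted p of 0.0743, 0.374 and 0.175 with the block (limma). Uqcr11 turned to 0.017 without AdGFP replicate 1. The other 5 members had log2 fold changes between these and 0.

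In complex V, the ATP synthase, all 16 tested members had a log2 fold change below 0, and none passed with or without the block. The median was -0.15, with -0.18 over the 5 subunits of the catalytic F1 head and -0.13 over the 11 of the stalk and membrane part. Without AdGFP replicate 1 the median of the complex turned to 0.016, and it was -0.031 without AdCre replicate 3, -0.35 without AdGFP replicate 3 and -0.29 without AdCre replicate 1. Quantile normalization and voom on the recovered reads gave -0.093 and -0.085. In replicate 3 the pair differed little, since only 10 of 16 members were lower in that pair, against all 16 in pairs 1 and 2. Atp5j, a stalk subunit, was at 57.5, 51.5 and 46.5 FPKM in AdGFP and at 47.9, 45.2 and 36.7 FPKM in AdCre (log2 fold change -0.26, limma adjusted p 0.624 without and 0.0943 with the block). Atp5c1, the central shaft of F1, was at 132.7, 124.7 and 104.8 FPKM in AdGFP and at 115.2, 108.5 and 91.2 FPKM in AdCre (-0.20). The membrane subunits Atp5j2 and Atp5mpl had log2 fold changes of -0.15 and -0.23, neither past the threshold. The Atp5o gene of the oligomycin sensitivity subunit was at 77.1 ± 26.7 (AdGFP) and 69.2 ± 16.3 FPKM (AdCre) (SD, n = 3 each), with a direction that turned without AdGFP replicate 1 or without AdCre replicate 3 (0.12 and 0.033), and 47.9% of its exon bases overlap another gene. A second row with the symbol Atp5o, all of whose exon bases overlap Donson, was at 0 in every library and was not tested.

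**Figure D4:**
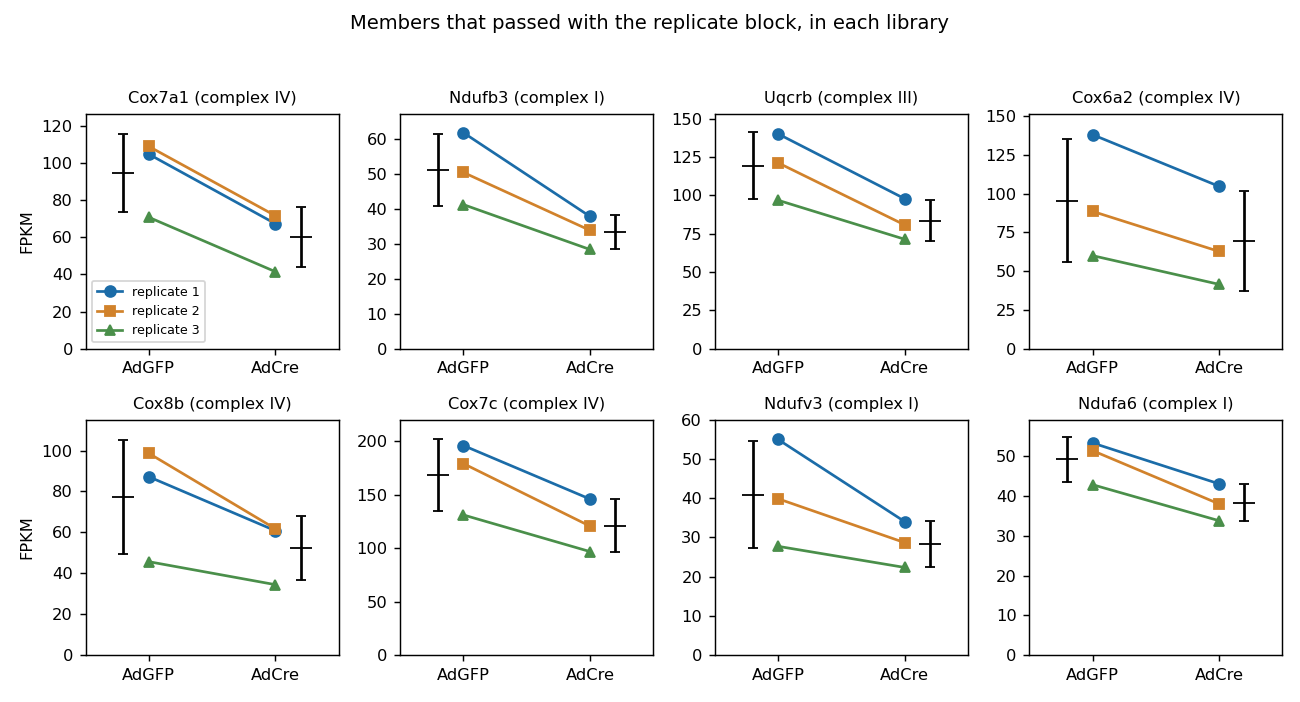
FPKM (y axis, linear from 0) of the 8 members with an adjusted p under 0.05 in the fit with the replicate block, in the AdGFP and AdCre libraries, with lines joining libraries of the same replicate number and black bars giving the group mean ± SD (n = 3). All lines fall from AdGFP to AdCre, and the groups stand apart without overlap for Ndufb3 alone.

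Exon length, counted over all annotated exons of a gene and not for a single transcript, moved with the size of the difference. The Spearman correlation between exon length and log2 fold change was 0.43 over the 84 tested members, which share their libraries. The 21 members with under 1000 exon bases had a median of -0.25 and the 11 with 4000 or more a median of -0.10, while all tested genes in the same length classes had medians of -0.02 and -0.00. The difference between replicates 1 and 3 in AdGFP moved with length too, from a median of 0.74 in the shortest to 0.47 in the longest members, and over all tested genes from 0.28 to -0.076. The part of length in these results was not tested.

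Other lists of the pathway, written from general knowledge, had medians between -0.17 and 0.03, and differences between lists were not tested. The mitochondrially encoded subunits, which share complexes I, III, IV and V with the members, had a median log2 fold change of 0.02, and 0 of 13 passed with or without the block. The pairs differed in direction, with medians of 0.18, 0.22 and -0.22 in pairs 1 to 3, and 11 of 13 were lower in pair 3. Among 48 tested assembly factors the median was -0.15. With the block 2 fell (4.17%, near the 3.51% of all genes), the complex I assembly factor Ndufaf1 (-0.45) and the complex III assembly factor Uqcc3 (-0.47), both named after their values were seen. The assembly factors with the smallest p without the block, Sdhaf4 (-0.58) and Coa5 (-0.45), had adjusted p of 0.0757 and 0.0742 with it (limma). Among 14 tricarboxylic acid cycle enzymes the median was -0.17 and 0 passed, with Ogdh at -0.27 and Idh2 at -0.25. Among 19 genes of mitochondrial import, carriers and chaperones the median was -0.04 and 0 passed, with Slc25a12 at -0.29 and Slc25a11 at -0.22.

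Of 14 tested regulators of mitochondrial biogenesis, 2 fell with the block (14.3%, against 3.51% of all genes). Ppargc1a, a coactivator of mitochondrial genes, was at 5.54, 5.55 and 4.62 FPKM in AdGFP and at 3.77, 3.84 and 2.35 FPKM in AdCre, without overlap of the groups. Its log2 fold change was -0.67, with an adjusted p of 0.365 without and of 0.0415 with the block (limma). Perm1, a muscle regulator of the same pathway named after its values were seen, had -0.74 (limma adjusted p 0.0492 with the block), and the nuclear receptor Esrrg had -0.50 (0.0708). The median over this list was -0.08. Among 77 mitochondrial ribosomal proteins the median was -0.01, with 1 rise with the block (1.3%, against 2.64% of all genes), Mrps6 (0.87), and Mrpl24 at -0.35 did not pass. Among 80 cytosolic ribosomal proteins the median was 0.03 and 0 passed, with Rpl39 at -0.22 and Rps10 at 0.45. Rps10 had a mean of 0.764 FPKM in AdGFP and of 1.11 FPKM in AdCre, near the filter of 0.5 FPKM.

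Cardiomyocytes are rich in mitochondria, and their markers had the lowest median of the marker lists. All 15 had a log2 fold change below 0, with a median of -0.78, and 8 fell with the block (53.3%, against 3.51% of all genes), among them Actn2 (-1.05) and Pln (-1.31). Their summed level ranged from 7853 to 13873 FPKM in AdGFP and from 4676 to 7050 FPKM in AdCre, without overlap. Taken gene by gene, 6 of the 15 were lower without overlap (40%, against 8.02% of all genes). These markers were also higher in replicate 1 than in replicate 3, by a median of 0.72 on the log2 scale in AdGFP and 0.40 in AdCre. Fibroblast markers had a median of -0.31, with 3 of 10 lower with the block (Col3a1, Dcn and Lum, 30% against 3.51% of all genes) and 1 higher (Thy1, 10% against 2.64%), and summed levels of 2685 to 4747 FPKM in AdGFP and 2405 to 3453 FPKM in AdCre. Ddr2, the other fibroblast marker with a small p, had 0.35.

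Endothelial markers had a median of 0.38, with 5 of 12 higher with the block (Ly6c1, Flt1, Egfl7, Eng and Cdh5, 41.7% of the list against 2.64% of all genes) and summed levels of 103 to 157 FPKM in AdGFP and 154 to 222 FPKM in AdCre. Ly6c1 (2.32) was the one gene of all 13794 called without the block. Macrophage markers had a median of 0.41, with 2 of 9 higher with the block (Lyz2 and C1qb, 22.2% against 2.64%), Cd68 at 0.72 and Csf1r at 0.53, and summed levels of 52.6 to 286 FPKM in AdGFP and 94.4 to 353 FPKM in AdCre. Between replicates 1 and 3, macrophage markers differed by a median of -1.96 in AdGFP and -1.70 in AdCre, opposite in sign to the members. The same difference was -1.004 and -0.836 for fibroblast, -1.74 and -0.87 for epicardial and mesothelial, -0.45 and -0.50 for endothelial, and -0.45 and -0.60 for smooth muscle and pericyte markers. Epicardial and mesothelial markers had a median of -0.38, with 2 of 9 higher with the block (Krt8 and Krt18, 22.2% against 2.64%) and 2 lower (Tbx18 and Lrrn4, 22.2% against 3.51%), and summed levels of 264 to 433 FPKM in AdGFP and 387 to 505 FPKM in AdCre. Smooth muscle and pericyte markers had a median of -0.06, with 0 of 8 called, Kcnj8 at -0.52 and Rgs5 at -0.42, and summed levels of 183 to 215 FPKM in both groups. The part of cell composition in the members' results was not tested.

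**Figure D5:**
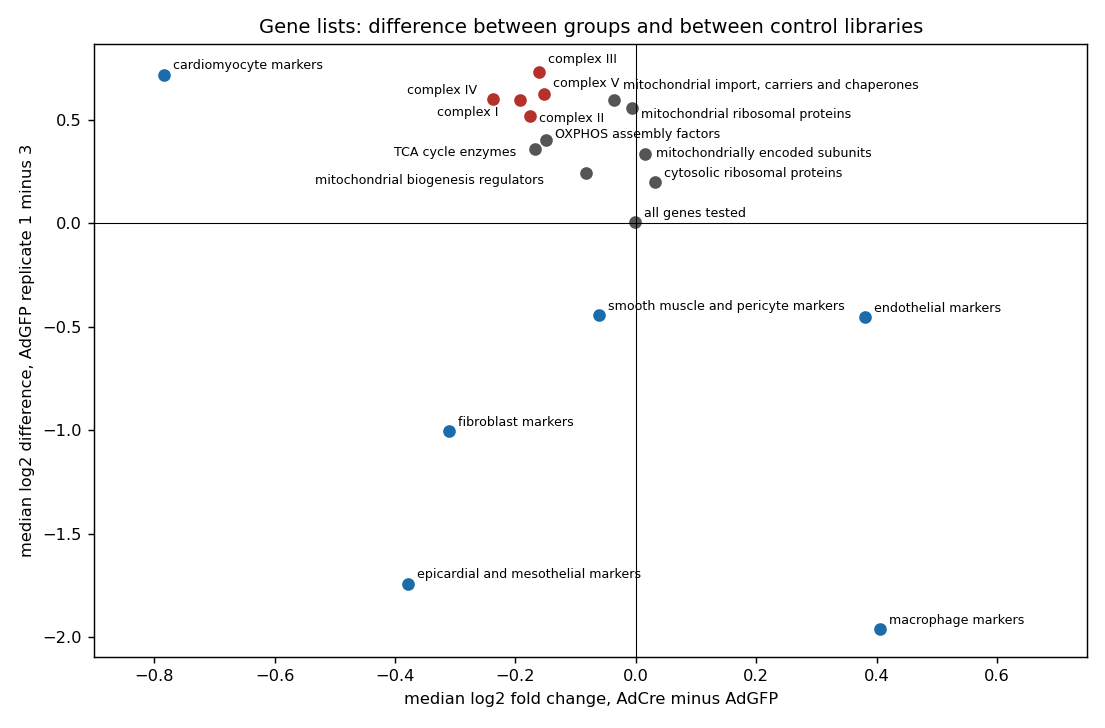
Median log2 fold change of each gene list between the groups (x axis, AdCre minus AdGFP) against its median log2 difference between AdGFP replicates 1 and 3 (y axis), with the 5 complexes in red, cell type markers in blue and other lists in grey. The complexes lie together at the upper left, on the same side of both axes as the cardiomyocyte markers. Tricarboxylic acid cycle enzymes, assembly factors, biogenesis regulators and the import, carrier and chaperone genes lie on that side too. The medians of the mitochondrially encoded subunits and ribosomal proteins lie near 0 on the x axis.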

How the data were processed

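RNA was sequenced from 6 cultures, 3 AdGFP and 3 AdCre. Per the labels, cDNA was made from random hexamers on poly-T-selected messenger RNA. The authors deposited FPKM values, unpooled, in 1 column per sample, and the table has 0 other value columns. The submitters' processing notes name fastp, STAR 2.5, HTSeq 0.6.1 and mm10, and the use of strand is not given in the sources used here. Symbols, biotypes, exon lengths and coordinates came from GENCODE M21 (GRCm38), which lacks 37 of the 54532 gene IDs. FPKM times exon length was a whole multiple of 1 step per library for between 97.7 and 97.9% of values of 1 to 200 reads (tolerance 0.02 reads), and reads were recovered from that step. The scaling behind the FPKM differs from the recovered totals by factors of 0.931 to 1.03, and the cause was not tested.

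Values were tested as log2(FPKM + 0.1) in limma 3.58.1 (R 4.3.3; lmFit, eBayes with a trend) over the 13794 genes whose mean reached 0.5 FPKM, with Benjamini-Hochberg adjustment and a call at an adjusted p under 0.05. Fold changes on this scale understate those of low genes. The labels call the samples biological replicates without naming animals or cultures, so p-values measure the spread between these samples. Same-numbered libraries deviated together (correlations 0.568, 0.268 and 0.506, others between -0.497 and 0.0364), so the number was also fitted as a block. Isoform ratios were tested by exact two-sided permutation. Counts of lists are descriptions, and no set test was run. The fit was tested on simulated data.

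Members and lists were chosen with earlier results of these data known. Named were the isoform pairs, Sdha to Sdhd, the 4 members with the smallest p in complexes I, III, IV and V, called or untested members, and the 2 genes with the smallest p in each other list. Shared sequence was the share of 50-base transcript words found in other genes, at least 5% for 21 tested members. Alternatives were a pseudocount of 1 or 0.01, no filter or one at 1 FPKM, protein-coding genes alone, TPM, median centring, quantile normalization, no trend, voom, the block, and leaving out samples or pairs. Variants of the blocked fit other than leaving out pairs were chosen after seeing the data. Python 3.11.15, numpy 2.4.6, pandas 2.3.3, scipy 1.17.1 and matplotlib 3.10.9 were used.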

Additional observations from a re-analysis of the deposited data

How the results depend on the processing

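Without the block, 0 members were called under every alternative run. With the replicate block 8 members (9.52%) were called lower, against 3.51% of all genes. The members and the share of all genes called lower were 5 (5.95%) and 2.44% after TPM, 6 (7.14%) and 3.04% after median centring, 7 (8.33%) and 2.91% after quantile normalization, 9 (10.7%) and 5.36% with voom, 8 and 3.23% with a pseudocount of 1, and 6 and 3.25% without pair 1. They were 0 and 0.718% without pair 2, and 0 without pair 3, the filter or the trend, where at most 0.0211% of all genes were called lower. Of the 8 members, Ndufa6 was not called after TPM, median centring or quantile normalization, with voom or without pair 1. Ndufv3 was not called after TPM, after median centring or without pair 1, and Cox6a2 was not called after TPM. With voom and the block, Ndufs7 and Ndufa4l2 were called as well. Members lower without overlap numbered 8 after TPM (9.52%, all genes 4.04%), 6 after quantile normalization (7.14%, 7.71%), 1 with voom (1.19%, 5.52%), 13 without pair 1 (15.5%, 20.4%), 7 without pair 2 (8.33%, 17.1%) and 31 without pair 3 (36.9%, 17.9%). When 1 sample was left out they ran from 2 to 31 (all genes 9.98% to 16.3%), with 31 without AdGFP replicate 3 (36.9%, all genes 14.9%). Members higher without overlap numbered 1 without the filter (1.18%, 6.18%), 1 without pair 1 (1.19%, 20.4%) and 0 to 1 when 1 sample was left out (all genes 9.2% to 15.8%).

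Without AdGFP replicate 1 the median of complex V turned to 0.016, and without AdCre replicate 3 that of complex III to 0.0027. The members' median ranged from -0.35 to -0.04 when 1 sample was left out, with -0.04 without AdGFP replicate 1 and -0.06 without AdCre replicate 3, which leave the replicate numbers unbalanced, and from -0.23 to -0.16 when a pair was left out. It was -0.10 after TPM and -0.12 with voom, which moved the median of all genes to 0.09 and 0.06. The log2 fold change of Cox8a was 0.033 after quantile normalization, also with the block. That of Sdhb was -0.020 without pair 2, and when 1 sample was left out it ranged from -0.090 (without AdGFP replicate 3) to 0.19, and was negative also without AdGFP replicate 2 or AdCre replicate 1. Ranges when 1 sample was left out were -0.41 to 0.12 for Atp5o, -0.27 to 0.036 for Cox4i1, -0.33 to 0.014 for Ndufa4 and -0.55 to 0.017 for Uqcr11, with each upper end without AdGFP replicate 1, and Atp5o was 0.033 without AdCre replicate 3. The cause of these changes was not tested.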

Other observations

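Of 13 rows whose symbols begin like those of members but that are not protein-coding, 12 are pseudogenes and 3 reached the level for testing. Ndufb1-ps, annotated as a non-coding RNA from a bidirectional promoter and named after its values were seen, was at 36.3, 24.3 and 25.2 FPKM in AdGFP and at 30.7, 22.8 and 23.8 FPKM in AdCre, a log2 fold change of -0.14 (limma adjusted p 0.889 without and 0.320 with the block). Its level was within the range of complex I subunits, whose mean over all libraries ran from 1.32 to 108 FPKM.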
